A study of Zea mays with 4 samples.

Results

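The maize alternative oxidase genes were followed in the young stem. They are represented by 3 probe sets, 1 each for Aox, aox3 and aox1, among 1108 genes that the platform annotation pairs with a probe set of their own. They were picked by gene symbol, or by a RefSeq synonym of the same gene identifier, and with their difference between the groups already known, so that difference is described here and not tested. Alternative oxidase sits in the inner mitochondrial membrane, takes electrons from ubiquinol and passes them straight to oxygen, so that the proton-pumping cytochrome branch of the respiratory chain is bypassed. The enzyme lets respiration go on when the cytochrome branch is limited, and in plants its transcripts are known to respond to stress and to respiratory inhibition. The genes are nuclear, and in maize they are known to be expressed differently from each other in mutants with defective mitochondria.

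The samples were young stacked internodes of maize plants with 6 to 7 leaves, each hybridised to 1 Affymetrix maize array. The WS group held 2 arrays and the CCR mutant group 2 arrays; in the mutant, cinnamoyl-CoA reductase (CCR), which commits phenolic precursors to lignin, is downregulated. The labels neither spell out WS nor name the mutant's allele. Each WS sample joined its own extract (185 and 215 µg of RNA) with 3 further extracts of 1 µg, and its labels record a drought of 36 h at a REW of 20 to 30%. Each CCR mutant sample was a single extract (144 and 182 µg), with no treatment. All plants had days of 25 °C and nights of 22 °C, with 16 h of light. Genotype, pooling and the recorded drought follow the same split of the arrays and cannot be told apart. The labels do not say whether replicates are separate plants. SDs and p-values therefore measure the spread between the samples hybridised, possibly a technical one, and their precision is limited by having 4 arrays.

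Array medians lay between 6.55 and 6.60 on the log2 scale of the deposited signals. The CCR gene cncr1 was at 8.59 and 9.14 in the mutant arrays against 10.99 and 10.13 in the WS arrays. It was lower in the mutant, with a difference of -1.70 (SE 0.38) that did not pass (limma adjusted p = 0.68). The second CCR gene, cncr2, was at 5.59 and 5.13 in the mutant arrays against 5.93 and 5.0 in the WS arrays. All 4 markers of young xylem and secondary wall (bk2, cesa10, cesa11 and CesA12) were bright on every array, between 9.68 and 10.82, as were all 4 leaf markers, between 10.04 and 12.39. The array carries 66 probe sets for reporters that maize does not have, and 65 of them stayed at or below 3.43 on every array. The remaining reporter probe set read up to 13.77 and was set aside. The value of 3.43 is used below as the level of no specific signal.

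Aox was above that level on all 4 arrays, and its values were higher in the CCR mutant. Its RefSeq entry also carries the synonyms aox1 and aox2. In the 2 WS samples the log2 signal of Aox was 6.76 and 5.59, and in the 2 CCR mutant samples it was 8.62 and 7.54. Both mutant arrays lay above both WS arrays. The group means were 6.17 ± 0.83 in WS and 8.08 ± 0.76 in the CCR mutant (SD, n = 2 each). The difference was 1.91 (SE 0.59 from the fit across all probe sets), a geometric mean signal 3.75-fold higher in the CCR mutant. The mutant array nearest to WS exceeded the higher WS array by 0.78, while the arrays farthest apart differed by 3.03. In whole-tissue RNA a higher transcript level per cell and more cells that express the gene cannot be told apart.

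Aox also varied widely within each group. Its 2 WS arrays lay 1.17 apart and its 2 CCR mutant arrays 1.08 apart, where the median gap over tested probe sets was 0.14 in WS and 0.12 in the mutant. A gap at least as wide was found in 1.81% of tested probe sets in WS and in 1.80% in the CCR mutant. WS replicate 2 was the lowest Aox array. It was also the lowest array of the leaf markers, whose summed linear signal was 10342 there, 14969 in WS replicate 1, and 13605 and 14252 in the CCR mutant. Of the leaf markers 4 of 4 had a higher mean in the CCR mutant, by 0.15 to 0.18, none was at background, and their part in the Aox values was not tested. Of 3 epidermis and cuticle markers 2, plt2 and gl8, had a higher mean in the mutant, by 0.25 and 0.27, and gl1 a lower one, by -0.11. Their summed signal was 8523 and 10222 on the WS arrays and 10308 and 12069 on the mutant arrays, none was at background, and their part was not tested. Among the 4 xylem and secondary wall markers 1, CesA12, had a higher mean in the mutant, and the differences ran from -0.265 to 0.105. Their summed signal was 5768 and 4478 on the WS arrays and 4063 and 5281 on the mutant arrays, and their part was not tested. Of 4 markers of meristem and dividing cells (KN-1, lg3, cyc3 and MCM7), 0 had a higher mean in the mutant. Their differences ran from -0.57 to -0.29, with a summed signal of 977 and 905 on the WS arrays and 753 and 668 on the mutant arrays, none was at background, and their part in the Aox values was not tested either.

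The aox3 transcript was seen above background in the CCR mutant samples alone. Its log2 signal on the WS arrays was 2.78 and 2.51, and on the mutant arrays 4.41 and 4.13. The WS values fall among those of the foreign reporters, so they set no level for the gene there, and the mutant values stand only a little above the reporters. As measured, the means were 2.65 ± 0.19 and 4.27 ± 0.20 (SD, n = 2 each) and the difference 1.63 (SE 0.16). Taken against the reporter level in place of the WS values, the mean of the CCR mutant was higher by 0.84, or 1.79-fold. That level comes from other probe sets, so it sets no strict minimum for aox3. With values below 4 set to 4 the difference was 0.27. The probe set entered the fit through its CCR mutant arrays alone, since it reached a log2 value of 4 on 2 of the 4 arrays. The closeness of its 2 WS arrays, 0.27 apart, is therefore a closeness of background values.

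The third gene, aox1, gave no specific signal in this tissue. Its log2 values were 2.60 and 2.59 on the WS arrays and 2.47 and 2.61 on the mutant arrays, all below the level of the foreign reporters. The groups overlapped, and the difference of -0.055 between such values says nothing about the transcript. With 0 of 4 arrays at a log2 value of 4, aox1 was left out of the fit.

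**Figure D1:**
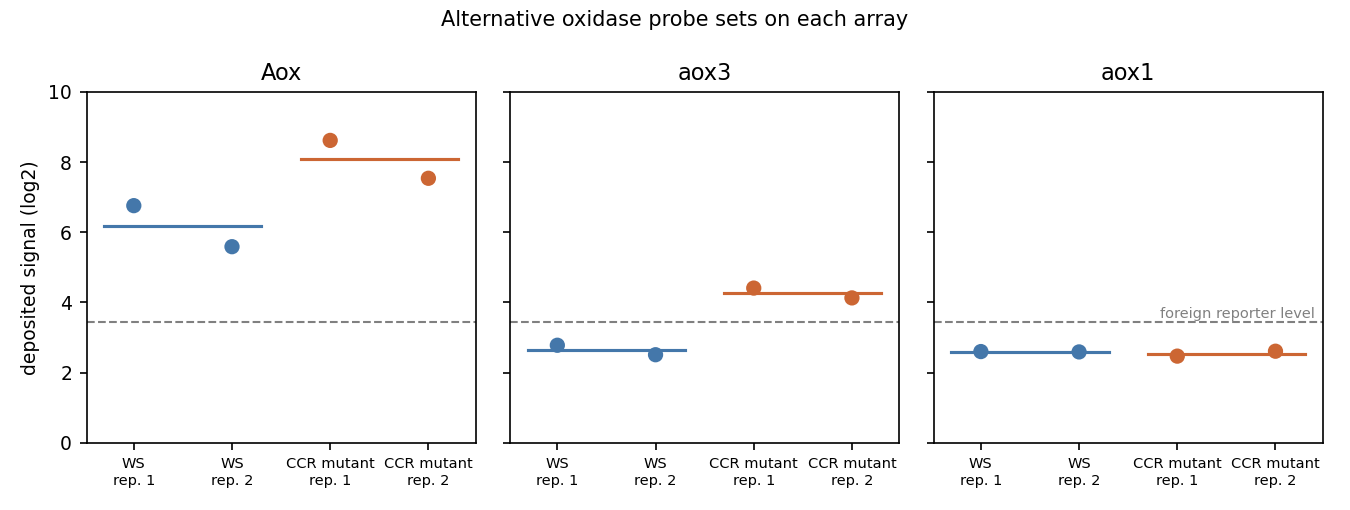
Deposited log2 signal of the 3 alternative oxidase probe sets on each of the 4 arrays (points; WS in blue, CCR mutant in orange), with group means as horizontal lines. The dashed line is the level of 3.43 that 65 of 66 foreign reporter probe sets did not exceed: Aox lies above it on 4 arrays, aox3 on the 2 CCR mutant arrays and aox1 on none.

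Of the 3 genes, 2 (Aox and aox3) thus had both CCR mutant arrays above both WS arrays, as did 13.0% of the 11085 tested probe sets. Across the tested probe sets, 0.153% passed at a limma adjusted p under 0.05, namely 9 higher and 8 lower in the CCR mutant. No pass or fail at this threshold is given for Aox and aox3, whose difference is not tested here, and aox1 was not in the fit. These shares stand as background only, because the members were chosen with this contrast known. A difference above 1, that is a signal more than doubled in the mutant, was measured for 1.17% of the tested probe sets. A difference at least as large as that of Aox was found in 53 of them, and one at least as large as that of aox3, which is measured from background, in 67. Over all tested probe sets the median difference was -0.045.

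**Figure D2:**
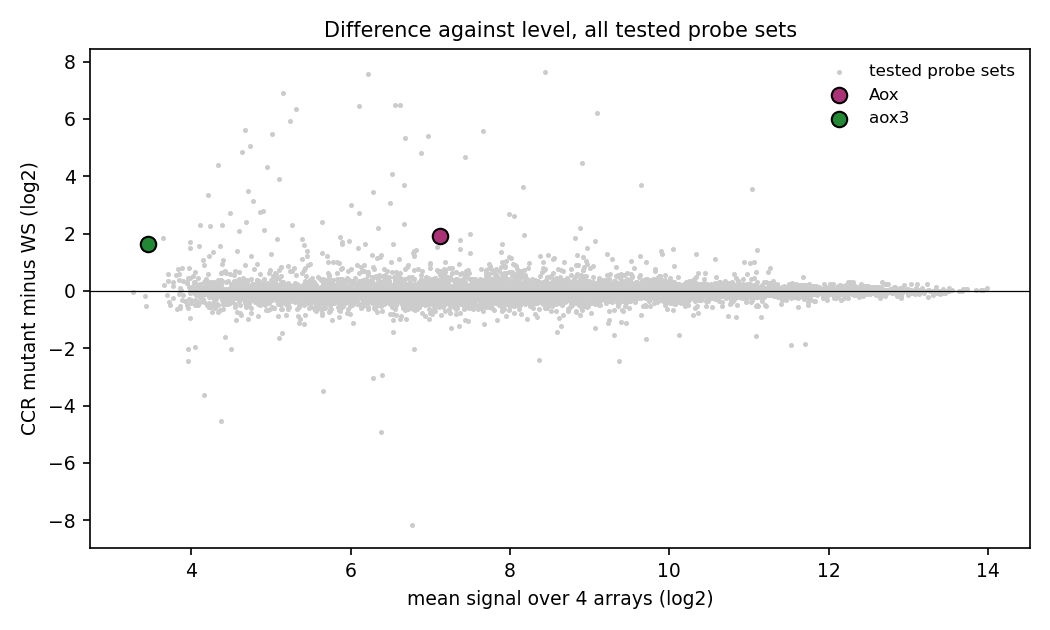
Difference between CCR mutant and WS (log2, vertical axis) against the mean log2 signal over the 4 arrays (horizontal axis) for the 11085 tested probe sets (grey), with Aox and aox3 marked. Both lie above most of the grey points, aox3 at the dim end of the range and Aox in its middle; aox1 was not tested and is not drawn.

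The Aox and aox3 genes lie on the same chromosome in the RefSeq assembly Zm-B73-REFERENCE-NAM-5.0, with 1 annotated gene between them, while aox1 is on another chromosome. The gene in between has 0 probe sets paired with it here. Whether the probes of one gene also bind transcripts of the other was not tested. After each gene was centred on its own mean over the 4 arrays, the profiles of Aox and aox3 differed by 0.45 (root mean square, log2, over 4 arrays). Of 865 tested probe sets with a named gene, 4 were nearer to Aox than aox3 was, and 6 were nearer to aox3 than Aox was. Both were known to be higher in the CCR mutant when they were chosen, which largely fixes these ranks, and the WS values of aox3 that enter them are at background. The ranks are given as a description only. The median distance of the named probe sets was 1.12 from Aox and 0.84 from aox3.

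The named genes nearest to Aox by this measure were m27, M7, SIP1-2, hsp18a and zmm6. Of these m27, M7 and zmm6 are MADS-box genes, a family of transcription factors known for floral organ identity. SIP1-2 encodes a small basic aquaporin and hsp18a a small heat shock protein. The distances ran from 0.30 for m27 to 0.54 for zmm6. The small heat shock protein gene hsp18a had log2 signals of 6.82 and 5.83 on the WS arrays and 8.86 and 6.84 on the mutant arrays. Like Aox it was highest in CCR mutant replicate 1 and lowest in WS replicate 2, with arrays of a group far apart, and its second mutant array was barely above its first WS array. The MADS-box gene M7 was at 6.62 and 6.39 against 9.03 and 7.96, with a wide gap in the mutant and a narrow one in WS. For m27 the WS values were 3.67 and 2.97 against 5.68 and 4.10, and for zmm6 they were 3.67 and 3.33 against 6.70 and 5.89. Both reached a log2 value of 4 on the mutant arrays alone and had a WS value below the reporter level, so their places rest in part on background values. A search for profiles like Aox makes genes with higher mutant values nearly certain.

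The named genes nearest to aox3 were SIP1-2, asn1, HP1, M7 and BMY1, at distances of 0.12 to 0.37. The aquaporin gene SIP1-2 was at 8.35 and 8.05 on the WS arrays and 10.22 and 9.63 on the mutant arrays, which differ by 1.73 (SE 0.25). It is well above background on all 4 arrays, unlike aox3. Asparagine synthetase asn1, which stores nitrogen as asparagine, was at 5.71 and 5.56 against 6.99 and 6.81. The histidine phosphotransfer gene HP1, a relay of cytokinin signals, was at 9.82 and 9.56 against 10.92 and 11.05, and the beta-amylase gene BMY1, whose product breaks down starch, at 6.51 and 6.56 against 7.62 and 7.30. For these genes the CCR mutant arrays also lay above the WS arrays, which the search again makes nearly certain.

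**Figure D3:**
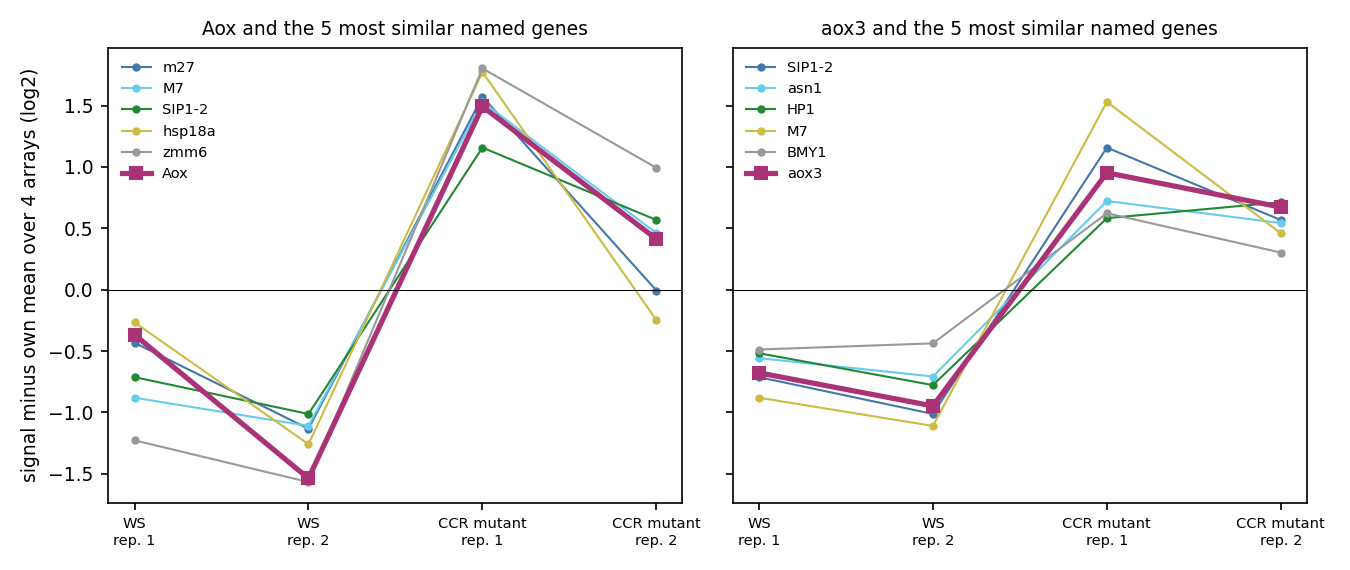
Log2 signal of Aox (left) and aox3 (right) on each array after subtraction of the gene's own mean over the 4 arrays (thick line, squares), with the 5 named genes of smallest root mean square difference (thin lines, circles). Aox and all 5 genes beside it were highest in CCR mutant replicate 1, and zmm6 is the farthest of the 5 from Aox at 0.54.

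The genes of electron transport, ATP synthesis and uncoupling that could be listed by symbol were ATP2, isp1 and PUMP. These 3 differed by at most 0.06 in either direction. On this array 16281 of the 17734 probe sets had no gene paired with them, so the list does not cover the respiratory chain. All 3 listed genes were tested and bright, and isp1 alone among them belongs to an electron-transfer complex. ATP2, the beta subunit of the mitochondrial ATP synthase, was at 12.07 and 12.12 on the WS arrays and 12.05 and 12.02 on the mutant arrays, which differ by -0.06 (SE 0.07). The Rieske iron-sulphur protein of the cytochrome branch, isp1, was at 10.78 and 10.67 against 10.73 and 10.80, a difference of 0.04 (SE 0.09). PUMP, a mitochondrial uncoupling protein, was at 8.88 and 8.66 against 8.71 and 8.72, a difference of -0.055 (SE 0.11). Of the 3 genes 0 passed, 1 had a higher and 2 a lower mean in the mutant, and the median difference was -0.055, where all tested probe sets had -0.045. Aox differed by 1.91 on the same arrays, but it was chosen with that difference known, so the contrast with these 3 genes is a description only.

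Other mitochondrial genes also had small differences, more of them with a higher than with a lower mean in the CCR mutant. The list of matrix, carrier and membrane proteins holds 20 genes, all tested, of which 16 had a higher and 4 a lower mean in the CCR mutant, with a median difference of 0.10. Over all tested probe sets 36.7% had a higher mean. Both mutant arrays lay above both WS arrays for 8 of the 20 and for 13.0% of all tested probe sets. With limma 0 of the 20 passed, and 0 reached an unadjusted p under 0.05, which 6.43% of all tested probe sets did. The differences ran from -0.38 for gdh1, glutamate dehydrogenase, to 0.47 for phb3, a prohibitin of the inner membrane.

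Among the 4 of these with the smallest p, phb3 was at 6.77 and 6.23 on the WS arrays and 7.12 and 6.83 on the mutant arrays, and its relative phb4 at 8.32 and 8.10 against 8.68 and 8.38. In both prohibitin genes the mutant arrays lay just above the WS arrays. On their brightest probe sets the other prohibitin genes differed by 0.005 (SE 0.07) for phb1 and 0.145 (SE 0.09) for phb2. Dimmer probe sets of phb1 differed by 0.26 (SE 0.15) and 0.065 (SE 0.08). The channel gene of the outer membrane vdac2 was at 8.04 and 7.79 against 8.10 and 8.32, a difference of 0.29 (SE 0.14). The fourth, gdh1, was at 8.96 and 8.47 against 8.28 and 8.40, lower in the mutant. Their limma adjusted p-values were 0.799 for vdac2, phb4 and phb3 and 0.801 for gdh1. The adenine nucleotide translocators ANT1 and ANT2, which exchange ADP and ATP across the inner membrane, differed by 0.05 (SE 0.10) and -0.03 (SE 0.07).

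Alternative oxidase is known to keep reactive oxygen low in mitochondria. The antioxidant genes, counted here with glutathione reductase and the h thioredoxins, had differences on both sides of 0. Of 10 genes 9 were tested, as the catalase gene cat2 was at background on all arrays, and 4 had a higher and 4 a lower mean, with sod2 equal in both groups. The median difference was 0.00. With limma 0 passed, where 0.153% of all tested probe sets did, and on its brightest probe set 0 genes reached an unadjusted p under 0.05, where 6.43% did, so that counts of 0 among 9 genes are near the background. The mitochondrial manganese superoxide dismutase gene sod3, which is also counted in the list of 20, was at 12.11 and 12.13 on the WS arrays and 12.27 and 12.24 on the mutant arrays, which differ by 0.14 (SE 0.07, limma adjusted p = 0.801). Ascorbate peroxidase apx2 differed by -0.14 (SE 0.13), thioredoxin trxh1 by -0.08 (SE 0.09) and the copper/zinc superoxide dismutase gene Sod4A by 0.23 (SE 0.29). The catalase gene cat1 had probe sets that disagreed, the brightest with a difference of -0.07 (SE 0.10) and a dimmer one with 0.23 (SE 0.08; limma unadjusted p = 0.0494, adjusted p = 0.774).

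**Figure D4:**
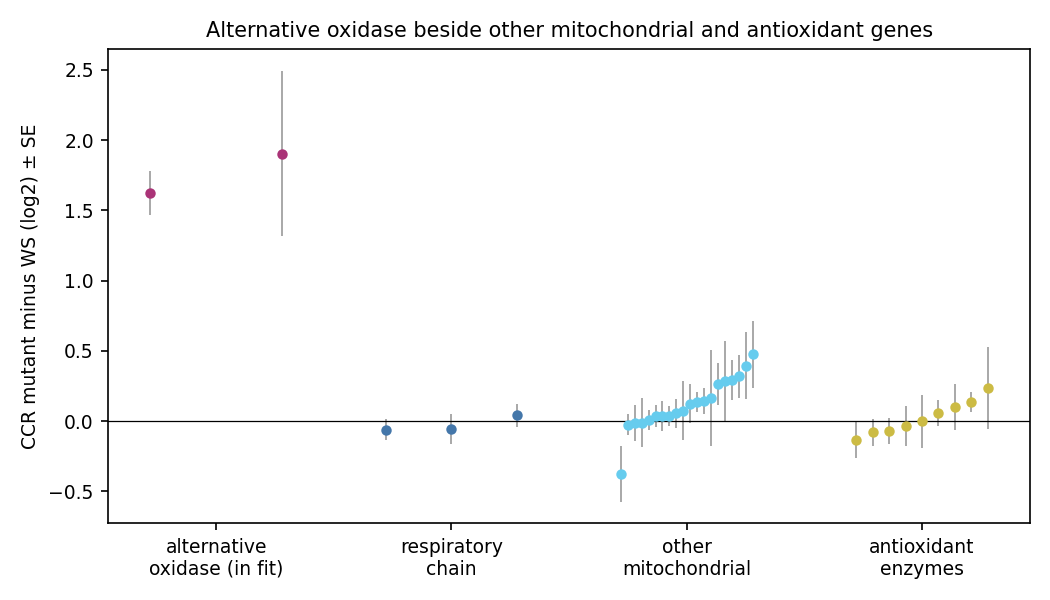
Difference between CCR mutant and WS (log2) for the tested genes of 4 groups, 1 point per gene with bars of 1 SE from the fit across all probe sets. Aox and aox3, which were chosen with their difference known, stand at 1.91 and 1.63. The genes of the other 3 groups lie between -0.38 and 0.47, and aox3 is measured from background in WS.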

How the data were processed

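RNA of 4 maize samples was measured on 4 arrays. The authors deposited 1 log2 value per probe set, computed by GCRMA (per the submitters' processing notes, with no version stated), a method that adjusts for probe composition and normalizes by quantiles. The table does not state the log base; values from 1.12 to 14.11 are read as log2.

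The values were not normalized again. Of 17734 probe sets, 179 control and reporter probe sets were left out, and 11085 with a log2 value of at least 4 on at least 2 arrays were fitted with limma 3.58.1 (R 4.3.3; two-sided, Benjamini-Hochberg over all tested, threshold 0.05), CCR mutant minus WS, with 2 residual and 1.70 prior degrees of freedom. The procedure was also run on simulated data with independent noise on each array. Such data lack any likeness between arrays of the same number, and the share of set differences recovered is not given here.

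Gene names come from the platform annotation and RefSeq. Members and lists were chosen with earlier results of these data known. The list rule asked for gene descriptions; as the tables used hold none, it was applied to gene symbols of known function. A gene stands for its brightest probe set. Named are all members, the CCR genes, 4 genes with the smallest p per list and the 5 nearest profiles; ANT1, ANT2, phb1, phb2, cat1, cat2 and sod2 were added after their values were seen. Alternatives were a floor of 4, 2 other normalizations, other filters and variance models, probe sets ending in _s_at or _x_at left out, all probe sets per gene, a replicate block and each array left out.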

Additional observations from a re-analysis of the deposited data

How the results depend on the processing

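The difference of Aox was 1.91 to 1.95 under a floor of 4, repeated quantile normalization and centred arrays, and 1.32 to 2.49 with 1 array left out. That of aox3 was 1.59 to 1.67 under both normalizations and 1.49 to 1.76 with 1 array left out, but 0.27 with values below 4 set to 4, because its WS values lie below that floor. For aox1 it was -0.12 to 0.01 with 1 array left out. The list medians with 1 array left out ran from -0.05 to 0.055 (respiratory chain; 0.055 without WS replicate 1), 0.05 to 0.14 (other mitochondrial) and -0.13 to 0.11 (antioxidant). The number of probe sets that passed with limma, 17, was 9 with no filter and 15 to 17 under the other filters, variance models and normalizations. No such count is given with 1 array left out, because a group then holds a single array. With the replicate number as a block, 0 passed (774 at an unadjusted p under 0.05). That fit has fewer residual degrees of freedom than the main fit, so the 2 counts are not directly comparable. The labels give the number no meaning, and with 2 pairs it does not establish pairing; deviations from the group means of replicate 1 correlated at 0.348 across probe sets. Between arrays of the same number Aox differed by 1.86 and 1.95 and aox3 by 1.63 and 1.62. The block lowered the SE from 0.59 to 0.08 for Aox and from 0.16 to 0.08 for aox3. The aox3 figures use WS values at background, so their closeness sets no precision for that transcript.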
